A study of Homo sapiens with 18 samples.

Results

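The genes described here are 440 long non-coding RNA genes that the array's annotation names either as long intergenic genes (symbols LINC plus a number, 177 genes) or as antisense genes (the symbol of another gene followed by -AS1, -AS2 or -AS3, 263 genes). They were chosen by symbol and by level. Of 933 genes with such a symbol, those were kept that, in 1 or more of the 6 groups of arrays, had a mean log2 value above the median feature, with 1 feature per gene, the one of the highest mean. A feature is the set of probes that the array summarises as 1 transcript. Because measured levels chose the genes, levels and differences between cell lines are given below as a description. No comparison of a treatment with its control was part of the rule, but a gene could enter through its treated arrays alone. The genes were also chosen with earlier results of these data known.

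RNA came from 3 human breast cancer lines, SKBR3, MDA-MB-231 and MDA-MB-468, treated for 48 h with 15 nM of a gapmer, a chemically modified antisense oligonucleotide (ASO) with a DNA core that recruits RNase H to cleave the RNA it binds, carried by the reagent TransIT-BrCa. SKBR3 cells received either an ASO directed at LINC01269, a long non-coding RNA, or a control ASO. Cells of the MDA-MB-231 line and of the MDA-MB-468 line received either an ASO directed at another such RNA, AL078604.2, or a control ASO. Each of the 6 groups had 3 arrays, all cells were exposed to an ASO and the reagent, and the labels do not say whether the 3 came from separate cultures, so p-values measure the spread between these arrays, which may be technical. SKBR3 is known as a HER2-positive line and the others as triple-negative lines. The design asks what depletion of each of the 2 targets does to gene expression, and neither target has a named feature among those used here, so the depletion itself was not analysed.

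Long intergenic RNAs are transcribed from their own promoters between protein-coding genes, and antisense RNAs from the strand opposite a protein-coding gene, often starting near its promoter and running away from it. Most are spliced and polyadenylated like messenger RNAs, but many stay in the nucleus, are made in few copies and are expressed in few cell types. A number of them act on the gene next to them, and others have been studied in breast and other cancers because their level differs between tumours.

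Replicate arrays correlated with r from 0.978 to 0.991 over all features tested, and control arrays of different lines with r from 0.959 to 0.977. Control means of different lines correlated with r from 0.971 to 0.981. Epithelial markers were near the top of all features under every label. EPCAM was at percentiles of 98.9 in SKBR3 control arrays, 99.2 in MDA-MB-231 arrays and 99.3 in MDA-MB-468 arrays. CLDN7 was at 96.3, 96.9 and 97.3 in the same order. The fibroblast marker DCN was near the bottom (6.33, 4.27 and 6.02). The endothelial marker PECAM1 was below the median feature but not near the bottom (32.5, 43.2 and 39.9). VIM, a mesenchymal gene typical of MDA-MB-231, was at 76.3, 76.7 and 82.4, and EGFR, whose locus is amplified in MDA-MB-468, was at 99.0, 98.2 and 98.7. GRB7, a gene of the ERBB2 amplicon of SKBR3, was at 79.2, 81.3 and 78.9, and the epithelial splicing gene ESRP1 was at 98.1, 98.1 and 98.0. RB1, which MDA-MB-468 is known to have lost, was at 48.0, 60.5 and 24.9, and the receptor gene AXL, known to be low in that line, at 80.9, 83.2 and 60.3. KRT5, chosen as a marker of MDA-MB-468, was at 69.8, 73.6 and 85.8. ORMDL3 (87.1, 82.9 and 83.7) and KRT18 (98.7, 98.5 and 97.0) were chosen for SKBR3. LOX (68.3, 70.1 and 77.6) and the dim ZEB1 (43.8, 45.9 and 33.3) were chosen for MDA-MB-231. RB1 and AXL were thus lowest and KRT5 highest under the MDA-MB-468 label, and ORMDL3, KRT18 and ZEB1 were highest under their labels. VIM, LOX, EGFR, GRB7 and ESRP1 did not follow the labels, and EPCAM and CLDN7 did not set MDA-MB-231 arrays apart. The markers therefore did not settle the labels, and a name such as SKBR3 arrays means below the arrays that carry that label.

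The LINC and -AS features were dimmer than other named features. In the 3 ASO groups the median gene stood at percentiles of 60.7 (SKBR3), 60.4 (MDA-MB-231) and 59.5 (MDA-MB-468) of all features, and in the control groups of the same lines at 61.2, 60.2 and 60.2. Named features above the same threshold had medians from 77.1 to 77.5. Antisense genes had medians from 61 to 62.9 and intergenic genes from 57.6 to 59.1, and 14 or 15 of the 440 genes stood above the 90th percentile in any group. Signal depends on the probes as well as on the RNA, so these percentiles order features and not copies of RNA.

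**Figure D1:**
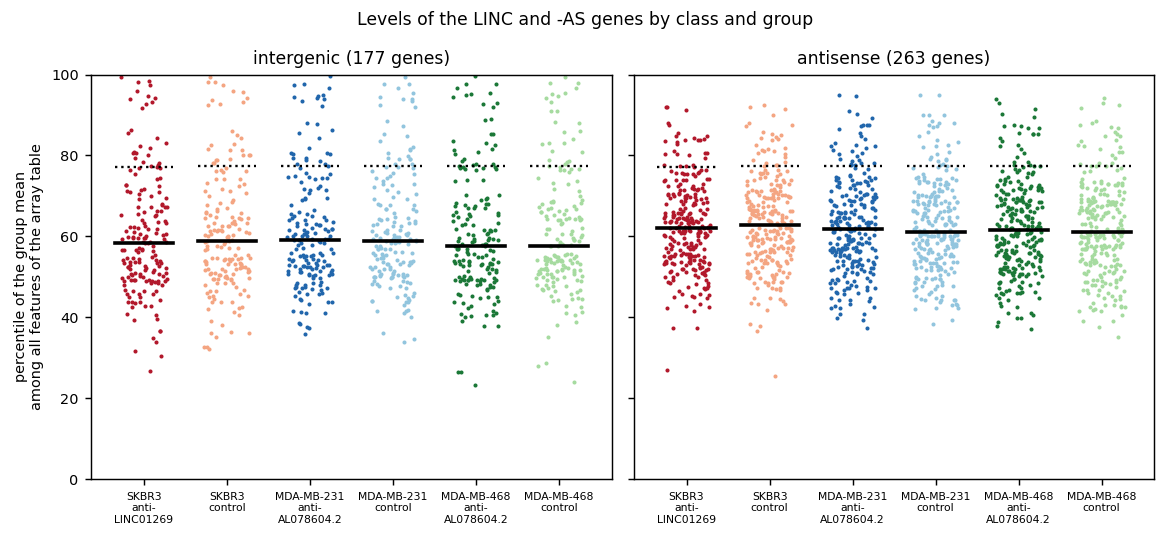
Percentile of the group mean among all features (vertical axis) for each intergenic gene (left) and antisense gene (right) in the 6 groups, with 3 arrays per group. Solid bars are medians of the genes (57.6 to 59.1 for intergenic and 61 to 62.9 for antisense genes) and dotted bars medians of all named features above the threshold (77.1 to 77.5).

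The brightest of them, each taken at its brightest feature, were long intergenic genes. LINC00987 stood at percentiles of 99.3, 99.5 and 99.5 in control arrays of SKBR3, MDA-MB-231 and MDA-MB-468, and its ASO differences were 0.00, 0.04 and 0.03 log2 in the same lines. LINC01347 (98.2, 97.6 and 97.9), LINC01000 (98.2, 97.6 and 97.8), LINC00999 (97.5, 96.6 and 96.7), LINC01278 (95.6, 95.4 and 95.3), LINC01061 (95.9, 94.4 and 94.6), LINC00674 (93.8, 93.5 and 95.2) and LINC00933 (92.6, 93.9 and 94.3) followed in control arrays of the same lines. These levels hold for the feature used. Another tested feature differed in mean by -6.63 log2 for LINC00987, -4.18 for LINC00933 and -1.56 for LINC00674. Other features differed by -0.54 and -3.56 for LINC01000 and by -1.88 to -4.49 for LINC00999. For LINC01347 the range was -0.16 to -4.87, and for LINC01061 -0.15 to -3.40. The brightest antisense genes were ZNF667-AS1 (91.4, 94.9 and 94.1) and MCF2L-AS1 (92, 94.9 and 93.0), named for a zinc finger gene and for a guanine nucleotide exchange factor gene.

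At the other end, 285 of the 440 genes exceeded the median in all 6 groups and 35 in 1 group. LINC01940 was the gene nearest above the threshold, with a mean of 5.226 against a median of 5.221 in the MDA-MB-468 anti-AL078604.2 arrays, followed by HEXA-AS1 (5.416 against 5.408 in the MDA-MB-231 anti-AL078604.2 arrays). LINC02709 (5.402 against 5.408) and FAM13A-AS1 (5.395 against 5.401) missed it most narrowly, the first in anti-AL078604.2 and the second in control arrays of MDA-MB-231. The threshold was passed in the arrays of SKBR3 alone by 28 genes, of MDA-MB-231 alone by 16 and of MDA-MB-468 alone by 12, and by 328 genes in arrays of all 3 lines.

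FOXD2-AS1, a long non-coding RNA that lies beside the forkhead transcription factor gene FOXD2 and has been studied in many tumour types, was the 1 gene of the 440 that passed the test when each ASO was compared with the control of its line (0.227% of the genes, against 0.171% of all features called in that comparison and 0.0971% called as higher). In MDA-MB-231 arrays its log2 values were 7.14, 7.52 and 7.81 with the anti-AL078604.2 ASO, against 6.81, 6.91 and 6.70 with the control ASO. All 3 anti-AL078604.2 arrays lay above all 3 control arrays, and the gene rose 1.60-fold (0.68 ± 0.131 log2, SE, limma adjusted p = 0.0498). In bulk RNA, a change in the RNA of each cell and a change in the share of cells that make it cannot be told apart. The call stood at the edge of the threshold: it was lost in 7 of the other settings, with adjusted p from 0.0516 to 0.184, and without any 1 of 5 of the 6 arrays (every control replicate, and replicates 2 and 3 of anti-AL078604.2), with adjusted p from 0.113 to 0.315.

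The same gene was also higher with the anti-AL078604.2 ASO in MDA-MB-468 arrays, at 7.13, 7.0 and 6.82, against 6.63, 6.56 and 6.5 with the control ASO. Those groups did not overlap either, but the difference of 0.42 ± 0.131 log2 (1.34-fold) did not pass (limma adjusted p = 0.293). In SKBR3 arrays, which received the other ASO, values were 6.46, 6.45 and 6.44 with anti-LINC01269, against 6.18, 6.41 and 6.40 with the control ASO (0.12 ± 0.131, limma adjusted p = 0.828). FOXD2-AS1 was the 1 gene of the 440 whose ASO arrays lay above all control arrays in each line, and none lay below in each. Over all 29855 features tested, 58 lay above and 33 below in each line. FOXD2 itself, whose start is 3403 bases from that of FOXD2-AS1 in RefSeq, differed by 0.17 log2 in MDA-MB-231 arrays, -0.20 in MDA-MB-468 arrays and 0.21 in SKBR3 arrays, and its groups overlapped in each line.

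LINC01133, an intergenic RNA studied in epithelial cancers, was one of the brighter genes, at percentiles from 90.9 to 94.0. Its log2 values in MDA-MB-231 arrays were 9.29, 9.73 and 9.90 with anti-AL078604.2, against 9.23, 9.25 and 8.99 with the control ASO (0.48 ± 0.12, limma adjusted p = 0.124). In MDA-MB-468 arrays they were 9.03, 9.19 and 9.31, against 8.81, 8.68 and 8.86 (0.39 ± 0.12, limma adjusted p = 0.291). The groups did not overlap in either line, and in both the anti-AL078604.2 arrays were higher. In SKBR3 arrays the order was the opposite, with 8.29, 8.39 and 8.27 after anti-LINC01269, against 8.56, 8.51 and 8.49 after the control ASO (-0.20 ± 0.12, limma adjusted p = 0.645).

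ASB16-AS1, transcribed opposite ASB16, a gene for an adaptor of a ubiquitin ligase, was lower with anti-AL078604.2 in MDA-MB-468 arrays, at 7.06, 7.10 and 6.91, against 7.54, 7.53 and 7.51 with the control ASO. The groups did not overlap, and the difference was -0.50 ± 0.0966 log2 (limma adjusted p = 0.129). In MDA-MB-231 arrays the groups overlapped, with 7.91, 7.70 and 7.52, against 7.88, 7.84 and 7.80 (-0.13, limma adjusted p = 0.76). ASB16 differed by 0.08 log2 in MDA-MB-468 arrays and by -0.03 in MDA-MB-231 arrays. TMUB2, which RefSeq places on the other strand with a start 255 bases from that of ASB16-AS1, differed by -0.09 and 0.03.

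Taking the mean of the anti-AL078604.2 difference over the 2 lines, a comparison added after the data had been seen, FOXD2-AS1 (0.55 ± 0.0927 log2, 1.47-fold, limma adjusted p = 0.0093) and LINC01133 (0.44 ± 0.0852, 1.35-fold, adjusted p = 0.0194) rose and ASB16-AS1 (-0.32 ± 0.0683, 0.803 of the control level, adjusted p = 0.0295) fell. These 3 calls are 0.682% of the 440 genes, against 1.6% of all features called in that comparison (0.703% higher and 0.898% lower). FOXD2-AS1 kept its call in every alternative and in all 12 omissions of 1 array, with adjusted p from 3.15e-05 to 0.0439. LINC01133 lost it without control replicate 3 or anti-AL078604.2 replicate 2 or 3 of MDA-MB-231, or control replicate 1 or 2 of MDA-MB-468, with adjusted p up to 0.0703, and with only the arrays of the comparison (0.0543) or a replicate block (0.0789). ASB16-AS1 lost it without any of 10 arrays, with adjusted p up to 0.0837, and held it without anti-AL078604.2 replicate 1 of MDA-MB-231 or replicate 3 of MDA-MB-468. It also lost the call with no level filter (0.0506), only the arrays of the comparison (0.0511) or a replicate block (0.0818).

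**Figure D2:**
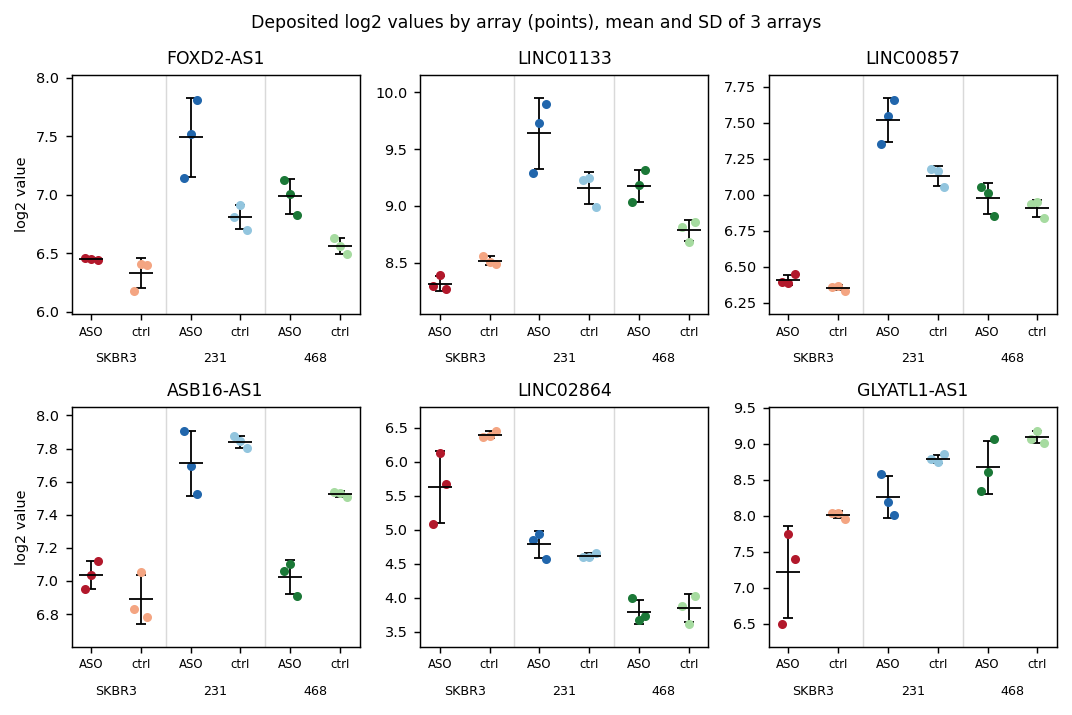
Deposited log2 values (vertical axis, a separate scale in each panel) of 6 genes on all 18 arrays, with the ASO left of the control ASO for SKBR3, MDA-MB-231 and MDA-MB-468 (axis labels give the number alone). Points are arrays and bars are means ± SD of 3 arrays. FOXD2-AS1 is higher on all ASO arrays than on the control arrays of each line, and GLYATL1-AS1 has a wider spread on ASO arrays than on control arrays in each line.

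The sequences around the starts of these 3 genes are shown because they carry the calls and differ in make-up. Each runs from 250 bases before to 50 bases after the start in RefSeq (GRCh38.p14), on the strand of the gene, with CG dinucleotides in capitals. FOXD2-AS1 is at chr1:47434592-47434891 on the minus strand, LINC01133 at chr1:159960974-159961273 on the plus strand and ASB16-AS1 at chr17:44186668-44186967 on the minus strand.
FOXD2-AS1: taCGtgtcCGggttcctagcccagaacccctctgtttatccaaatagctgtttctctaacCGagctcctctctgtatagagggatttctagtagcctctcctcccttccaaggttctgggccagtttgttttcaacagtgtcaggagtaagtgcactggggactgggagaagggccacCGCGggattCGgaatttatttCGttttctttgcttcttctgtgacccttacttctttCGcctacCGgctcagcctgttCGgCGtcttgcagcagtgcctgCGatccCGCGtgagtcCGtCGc
LINC01133: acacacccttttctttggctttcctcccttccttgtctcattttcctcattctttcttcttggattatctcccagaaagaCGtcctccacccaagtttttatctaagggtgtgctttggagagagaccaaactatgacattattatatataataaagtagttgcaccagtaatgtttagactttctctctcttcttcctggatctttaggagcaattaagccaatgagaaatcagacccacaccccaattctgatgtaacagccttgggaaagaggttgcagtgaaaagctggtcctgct
ASB16-AS1: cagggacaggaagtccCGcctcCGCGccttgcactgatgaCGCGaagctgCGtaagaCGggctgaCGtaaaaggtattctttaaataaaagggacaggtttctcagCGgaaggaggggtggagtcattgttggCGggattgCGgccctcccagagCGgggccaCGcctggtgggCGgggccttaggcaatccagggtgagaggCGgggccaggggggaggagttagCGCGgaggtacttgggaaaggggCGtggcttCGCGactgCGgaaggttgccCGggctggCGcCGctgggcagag
FOXD2-AS1 holds 16 CG dinucleotides and ASB16-AS1 24, whereas LINC01133 holds 1 and is the poorest of the 3 in G and C (41.3%, against 53.3% and 64.3%).

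The RefSeq table held such a region for 339 of the 440 genes. The median number of CG dinucleotides was 22 in antisense genes and 9 in intergenic genes, against 14 in all 27305 genes of the table. A gene on the other strand started within 1000 bases in a divergent direction for 35.6% of antisense genes and 13% of intergenic genes, against 18.4% of all genes. Motifs were searched on both strands. The AP-1 motif TGANTCA was present in 9.73% of the 339 regions (12.2% of intergenic and 8.17% of antisense genes), against 7.76% of all. The E-box CACGTG was present in 8.26%, against 7.43%, and the cyclic AMP response element TGACGTCA, which shares no match with TGANTCA, in 2.36%, against 1.98%. None of the 3 motifs is in the regions printed above.

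Among the 440 genes, limma called 1 in MDA-MB-231 arrays, FOXD2-AS1, 0 in MDA-MB-468 arrays (against 0.0067% of all features) and 0 in SKBR3 arrays (against 0%). An unadjusted p under 0.05 was reached by 31 genes in each comparison, which is 7.05%, against 9.35% of all features in MDA-MB-231 arrays, 10.5% in MDA-MB-468 arrays and 9.16% in SKBR3 arrays. Median differences of the 440 genes were 0.011, -0.001 and -0.018 log2 in the same order, against 0.010, -0.004 and 0.014 for all features. Groups did not overlap for 64 genes in MDA-MB-231 arrays, 26 higher and 38 lower (14.5%, against 17.2% of all features, 9.28% higher and 7.87% lower). In MDA-MB-468 arrays it was 66 genes, 35 higher and 31 lower (15%, against 16.9%, 8.41% higher and 8.5% lower), and in SKBR3 arrays 40 genes, 20 in each direction (9.09%, against 11.5%, 7.28% higher and 4.26% lower). These shares were near to or below those of all features.

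In MDA-MB-231 arrays, genes with the next smallest p did not pass. LINC00857, an intergenic RNA studied in lung and bladder cancer, had 7.35, 7.55 and 7.66 with anti-AL078604.2, against 7.18, 7.16 and 7.05 with the control ASO (0.39 ± 0.0834 log2, limma adjusted p = 0.077). Its groups did not overlap, and it passed when the test was limited to features above the 75th percentile (adjusted p = 0.0473). ZEB2-AS1, which is transcribed opposite the start of ZEB2, a repressor of epithelial genes, had 6.34, 6.59 and 6.31, against 6.12, 5.99 and 5.76 (0.46, limma adjusted p = 0.191), while ZEB2 differed by 0.06. AFF1-AS1 (0.44, limma adjusted p = 0.225) followed. Among genes with lower values, differences were -0.45 for DIAPH3-AS1 (adjusted p = 0.231), -0.40 for ALOX12-AS1 (0.244), -0.42 for NCAM1-AS1 (0.289), -0.47 for GALNT9-AS1 (0.348) and -0.26 for DDC-AS1 (0.353). DIAPH3, the actin-nucleating formin gene opposite DIAPH3-AS1, was lower too, at 8.67, 8.54 and 8.56 with anti-AL078604.2, against 9.04, 8.98 and 8.89 with the control ASO (-0.38, adjusted p = 0.305).

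Array by array, anti-AL078604.2 replicate 1 of MDA-MB-231 lay nearest to the control mean for 32 of the 64 genes whose groups did not overlap (50%, against 52.9% of such features over all). Without that array, limma called 5 of the 440 genes (1.14%, against 1.78% of all features), all higher: FOXD2-AS1 (0.86 log2, adjusted p = 0.00138), LINC01133 (0.66, 0.00287), LINC00857 (0.47, 0.00854), AFF1-AS1 (0.63, 0.012) and RPL26L1-AS1 (0.80, 0.0191). RPL26L1-AS1 was named for this call and not by the rule for named genes. A second feature of RPL26L1-AS1, of nearly the same level (mean difference -0.0647 log2), went the other way. With all arrays it differed by -0.16 log2 in MDA-MB-231 arrays (limma adjusted p = 0.831), against 0.52 for the feature used. Without any other array of that comparison the count was 0.

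In MDA-MB-468 arrays, besides the genes already given, the smallest p among genes that were higher belonged to LINC00997, with 6.82, 7.13 and 7.17 after anti-AL078604.2, against 6.79, 6.60 and 6.45 after the control ASO (0.43 ± 0.126, limma adjusted p = 0.264). DENND5B-AS1 (0.41, adjusted p = 0.327) and LINC00641 (0.27, 0.348) followed. Lower values were -0.52 for LINC01634 (adjusted p = 0.293), -0.35 for LINC01118 (0.338), -0.31 for DLGAP1-AS1 (0.419) and -0.23 for PDCD4-AS1 (0.427). PDCD4, the gene of a translation inhibitor and tumour suppressor for which PDCD4-AS1 is named, was also lower, at 10.01, 10.17 and 10.42, against 10.55, 10.52 and 10.54 (-0.33, adjusted p = 0.333). None of these passed.

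The same ASO was given to both triple-negative lines, and its differences were alike for some of the 440 genes and not for others. The sign was the same in both lines for 252 genes (57.3%), against 59% of all features, and Pearson's r across the 440 genes was 0.249 (Spearman's rho 0.202), against 0.326 across all features. These correlations are across genes, which share arrays and are not independent. Groups did not overlap, in the same direction in both lines, for 7 genes (1.59%, against 2.78% of all features): FOXD2-AS1, LINC01133, LINC00525 and SRD5A3-AS1 were higher, and LINC01634, LINC01000 and RAET1E-AS1 were lower. When the difference between the 2 lines was itself tested, 0 of the 440 genes passed (limma, 0% of all features), and 19 had an unadjusted p under 0.05 (4.32%, against 4.16%). The smallest p in each direction belonged to ZNF674-AS1 (0.39), ASB16-AS1 (0.37), LINC00857 (0.32), ZEB2-AS1 (0.47) and AFF1-AS1 (0.48), higher in the MDA-MB-231 comparison, and GAS5-AS1 (-0.49), EPHA5-AS1 (-0.67), ENO1-AS1 (-0.46), LINC00853 (-0.50) and SMAD5-AS1 (-0.48), lower in it. All 10 had adjusted p = 0.998.

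**Figure D3:**
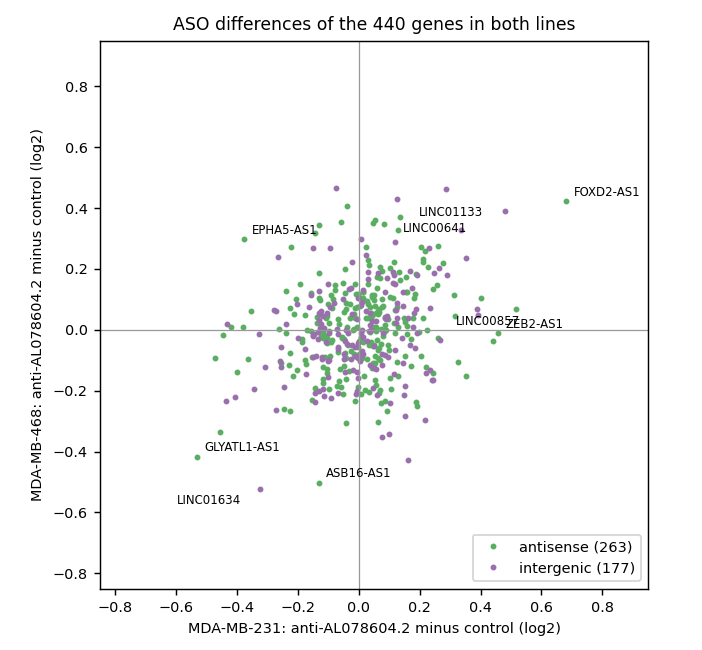
Difference between anti-AL078604.2 and control arrays in log2, in MDA-MB-231 arrays (horizontal axis) and MDA-MB-468 arrays (vertical axis), for the 440 genes (1 point each, coloured by class). FOXD2-AS1 (0.68 and 0.42) and LINC01133 (0.48 and 0.39) lie toward the upper right, and GLYATL1-AS1 and LINC01634 toward the lower left.

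In SKBR3 arrays, none of the 440 genes passed after anti-LINC01269. LINC02864 had log2 values of 5.08, 6.13 and 5.67 with anti-LINC01269, against 6.36, 6.38 and 6.46 with the control ASO (-0.77 ± 0.2, limma adjusted p = 0.332). GLYATL1-AS1, named for a glycine acyltransferase-like gene, had 6.5, 7.75 and 7.40, against 8.04, 8.04 and 7.96 (-0.80 ± 0.235, limma adjusted p = 0.383). In both, all ASO arrays were below all control arrays, and the 3 ASO arrays differed more from each other than the control arrays did (SD of 0.525 and 0.643, against 0.0524 and 0.0464). Without anti-LINC01269 replicate 2, which lay nearest to the controls, both passed (-1.03, adjusted p = 0.0165, and -1.06, adjusted p = 0.0398). They were the 2 genes of the 440 called in that omission (0.455%, against 0.774% of all features), and the count was 0 without any other array.

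With the other ASO, GLYATL1-AS1 had 8.58, 8.19 and 8.01 in MDA-MB-231 anti-AL078604.2 arrays, against 8.78, 8.74 and 8.85 in control arrays (-0.53, limma adjusted p = 0.487), without overlap. It had 8.34, 8.61 and 9.07 in MDA-MB-468 arrays, against 9.07, 9.18 and 9.01 (-0.42, limma adjusted p = 0.566), where the groups overlapped. LINC02864 was dim in both of these lines, with differences of 0.17 and -0.05. GLYATL1, the sense gene of GLYATL1-AS1, differed by -0.38 log2 in SKBR3 arrays, at 5.96, 6.38 and 6.12 with anti-LINC01269, against 6.54, 6.58 and 6.49 with the control ASO, and differed by -0.22 and -0.23 in the others (adjusted p from 0.489 to 0.751). Other genes with small p and lower values in SKBR3 arrays were LIN28B-AS1 (-0.49, adjusted p = 0.429), SPATA13-AS1 (-0.41, 0.45) and LINC01278 (-0.26, 0.487). Higher values were those of LINC00989 (0.47, adjusted p = 0.402), EPHA5-AS1 (0.48, 0.437), LINC00693 (0.33, 0.459), THAP9-AS1 (0.26, 0.472) and LINC00303 (0.30, 0.472).

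THAP9-AS1 was also higher in the other lines, by 0.23 and 0.21 log2, without passing in either. EPHA5-AS1, named for an ephrin receptor gene, differed by -0.38 in MDA-MB-231 arrays and by 0.30 in MDA-MB-468 arrays. Across the 440 genes the sign of the anti-LINC01269 difference matched that of the anti-AL078604.2 difference for 51.8% in MDA-MB-231 arrays (55.1% of all features) and for 53.2% in MDA-MB-468 arrays (51%).

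The antisense genes could be set beside the gene they are named for in 170 of 263 cases. In SKBR3 arrays, antisense and sense gene differed in the same direction in 98 pairs (57.6%, Pearson's r = 0.144 across pairs). In MDA-MB-231 arrays it was 90 pairs (52.9%, r = 0.204), and in MDA-MB-468 arrays 83 pairs (48.8%, r = 0.033). No pair was called in the same direction in any line, and pairs share their arrays, so these correlations describe the pairs and carry no test. Where the start of a gene lay within 1000 bases of a divergent gene and both were tested (42 pairs), the sign was the same in 20, 22 and 24 pairs in the same order of lines.

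RASAL2-AS1 and RASAL2 are a divergent pair described here because of its values, after they were seen. RASAL2, the gene of a Ras GTPase-activating protein that starts 111 bases from RASAL2-AS1 on the other strand, had 5.66, 7.89 and 6.75 with anti-LINC01269 in SKBR3 arrays, against 8.01, 8.13 and 8.09 with the control ASO (-1.31 ± 0.371, limma adjusted p = 0.382). With anti-AL078604.2 it differed by -0.79 in MDA-MB-231 arrays and by -0.59 in MDA-MB-468 arrays (adjusted p = 0.532 and 0.621), and in each line its groups did not overlap. RASAL2-AS1 differed the other way, by 0.08, 0.14 and 0.37 log2 in the same order, with 5.49, 5.19 and 5.50 against 5.18, 5.12 and 4.78 in MDA-MB-468 arrays (adjusted p = 0.385). Neither gene passed in any line.

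**Figure D4:**
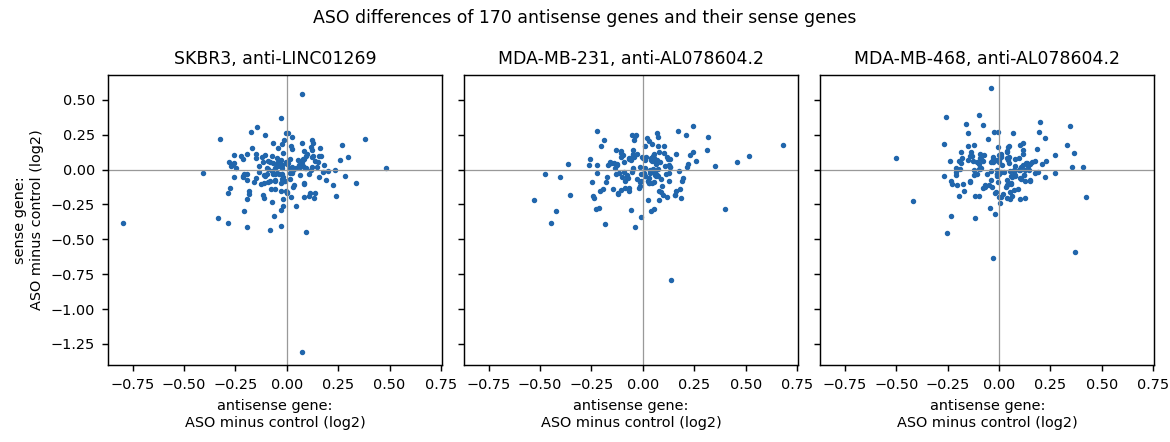
Difference between ASO and control arrays in log2 for 170 antisense genes (horizontal axis) and the genes they are named for (vertical axis), 1 panel per line and ASO. Points spread over all 4 quadrants, with the same sign in 57.6%, 52.9% and 48.8% of pairs from left to right, and the lowest sense gene in the first panel is RASAL2 (-1.31).

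Lists of genes with a shared background showed few calls. The lists were chosen with earlier results of these data known, and FOXD2-AS1 is on more than 1 of them. For every list below, the shares of all features called in the same comparisons were 0.171% in MDA-MB-231 arrays, 0.0067% in MDA-MB-468 arrays and 0% in SKBR3 arrays. Of 15 tested long non-coding RNAs that have been much studied in cancer, 1 rose in MDA-MB-231 arrays, FOXD2-AS1, with 8 of 15 above 0 and a median of 0.00 log2. In MDA-MB-468 arrays and in SKBR3 arrays, 0 of 15 passed (9 and 8 above 0, medians 0.08 and 0.02). SBF2-AS1 had the next smallest p, with 6.55, 6.71 and 6.98 after anti-AL078604.2 in MDA-MB-231 arrays, against 6.37, 6.36 and 6.31 after the control ASO (0.40, limma adjusted p = 0.231). ST8SIA6-AS1 differed by -0.28 in SKBR3 arrays and AFAP1-AS1 by -0.23 in MDA-MB-231 arrays. The next lists also hold genes whose symbol ends in -AS with no number and which are not among the 440. Of 7 tested antisense RNAs of transcription factor genes, again 1, FOXD2-AS1, rose in MDA-MB-231 arrays, and 0 of 7 passed in the other lines. WT1-AS, opposite the Wilms tumour gene WT1, differed by 0.27, 0.14 and 0.39 and MEIS1-AS3 by -0.28, -0.08 and 0.13 in SKBR3 arrays, MDA-MB-231 arrays and MDA-MB-468 arrays. Most of the last WT1-AS difference came from 1 array (limma adjusted p = 0.512). MDA-MB-468 values were 6.20, 5.97 and 7.07 with anti-AL078604.2, against 5.95, 6.09 and 6.02 with the control ASO, and the groups overlapped. Of antisense RNAs of the HOX clusters, which hold the genes that set position along the body axis, HOXC13-AS, HOXA10-AS and HOXB-AS3 were tested, and 0 passed (lowest limma adjusted p = 0.394, HOXC13-AS, 0.19 in MDA-MB-231 arrays).

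Other long non-coding RNA genes, such as snoRNA host genes, were tested beside these, 32 in all, of which 1, HIF1A-AS2, is also among the 440. Within single lines 0 of 32 passed. UCA1, an RNA known for its abundance in bladder cancer, had the lowest adjusted p, with a difference of 0.56 log2 in MDA-MB-231 arrays (limma adjusted p = 0.0944) and 0.31 in MDA-MB-468 arrays. Over the mean of both lines, the comparison added after the data had been seen, UCA1 rose by 0.43 log2 (limma adjusted p = 0.0246). Of all features, 1.6% were called in that comparison. The snoRNA host genes SNHG16 (0.35) and GAS5 (0.27) and the microRNA host gene MIR22HG (0.37) had their smallest p in SKBR3 arrays (adjusted p from 0.464 to 0.472). For each of them the groups overlapped, and anti-LINC01269 replicate 1 was the highest array. The nuclear machinery that degrades such RNAs, the exosome and its cofactors, and RNase H were also measured: 0 of 19 genes passed in any line. Medians of the 19 were 0.05 in SKBR3 arrays, 0.04 in MDA-MB-231 arrays and 0.04 in MDA-MB-468 arrays. The exosome subunit gene EXOSC2 (0.37) led in SKBR3 arrays (adjusted p = 0.429), the exosome nuclease gene EXOSC10 (0.17) and the RNase H gene RNASEH1 (0.18) in MDA-MB-231 arrays, and the nuclease gene DIS3 differed by 0.19 in MDA-MB-468 arrays.

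Between the lines, levels were compared on a quantile-normalized log2 scale, because the arrays of each line appear to have been scaled on their own (array medians of 4.56 to 4.63 in SKBR3 arrays, 5.41 to 5.43 in MDA-MB-231 arrays and 5.21 to 5.24 in MDA-MB-468 arrays). A difference of at least 1 log2 with limma adjusted p below 0.05 between control arrays was found for 13 genes between SKBR3 and MDA-MB-231 (4 higher and 9 lower in SKBR3, 2.95%, against 1.99% of all features, 0.884% higher and 1.11% lower). It was found for 11 between SKBR3 and MDA-MB-468 (8 higher and 3 lower in SKBR3, 2.5%, against 2.51%, 1.27% higher and 1.24% lower) and for 2 between MDA-MB-231 and MDA-MB-468, both higher in MDA-MB-231 (0.455%, against 1.25%, 0.677% higher and 0.573% lower), while without the fold threshold it was 128, 140 and 75 genes in the same order of comparisons, against 31.5%, 35.5% and 26.1% of all features. Levels in these groups chose the genes, so nothing is read from these counts, and line and array batch cannot be told apart.

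LINC02864 differed most, and it had entered the set through SKBR3 arrays alone. Its quantile-normalized values were 5.51, 6.54 and 6.11 in anti-LINC01269 arrays of SKBR3 and 6.80, 6.79 and 6.91 in control arrays of SKBR3. In MDA-MB-231 they were 4.52, 4.58 and 4.21 in anti-AL078604.2 arrays and 4.26, 4.25 and 4.30 in control arrays. In MDA-MB-468 they were 3.81, 3.44 and 3.52 in anti-AL078604.2 arrays and 3.68, 3.42 and 3.82 in control arrays. Control SKBR3 arrays were thus higher by 2.56 log2 than MDA-MB-231 arrays and by 3.19 than MDA-MB-468 arrays, and the order of the 3 lines was the same in the ASO arrays. FBXO15, a flanking gene, differed between lines by 0.02 and 0.14 log2.

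ZSWIM8-AS1 and MED4-AS1, which lie opposite the genes of a ubiquitin ligase subunit and of a Mediator subunit, were the other genes higher in SKBR3 arrays than in both other lines. ZSWIM8-AS1 had 6.93, 6.48 and 6.92 in SKBR3 control arrays, against 5.88, 5.53 and 5.56 in MDA-MB-231 arrays and 5.78, 5.59 and 5.39 in MDA-MB-468 arrays (1.12 and 1.19 log2). MED4-AS1 had 7.44, 6.76 and 6.87, against 6.02, 5.99 and 5.88 and then 6.22, 5.71 and 5.98 (1.06 and 1.05). The sense genes ran at a small difference: ZSWIM8 was 0.22 and 0.26 higher, and MED4 0.27 and 0.50 lower, in SKBR3 arrays. In the ASO arrays the differences were 0.85 and 0.92 for ZSWIM8-AS1 and 0.84 and 0.71 for MED4-AS1, so both stayed higher in SKBR3 but under 1 log2.

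Lower in SKBR3 arrays than in both other lines were LINC01139, also known as LINK-A and described in triple-negative breast cancer, and ST3GAL6-AS1, named for a sialyltransferase gene. LINC01139 had 4.86, 3.48 and 4.08 in SKBR3 control arrays, against 5.41, 5.24 and 5.43 in MDA-MB-231 arrays and 5.15, 4.96 and 5.43 in MDA-MB-468 arrays (-1.22 and -1.04 log2). Its 3 SKBR3 control arrays spread widely, and without replicate 2 of them the differences were -0.89 and -0.71. ST3GAL6-AS1 had 4.11, 3.31 and 3.73, against 5.56, 5.61 and 5.31 and then 4.73, 4.61 and 4.84 (-1.78 and -1.01), and the ASO arrays differed alike (-1.82 and -1.03). Both genes were dim, below the median feature, in SKBR3 control arrays, and ST3GAL6-AS1 was below it in MDA-MB-468 control arrays too. Such a gene could enter the set through another line alone, so the choice by level favours such differences.

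SH3PXD2A-AS1, opposite the gene of a scaffold protein of invasive cell protrusions, separated all 3 lines. It had 5.14, 5.34 and 5.25 in SKBR3 control arrays, 6.90, 6.89 and 6.90 in MDA-MB-231 arrays, and 5.66, 5.82 and 6.30 in MDA-MB-468 arrays. The SKBR3 arrays were lower by 1.65 log2 than MDA-MB-231 arrays and by 0.69 than MDA-MB-468 arrays, with no overlap between any 2 lines, and the sense gene SH3PXD2A differed by -0.16 and -0.41 log2 in the same comparisons. LINC01106 (-1.09) and LINC00673 (-1.09), the second an intergenic RNA studied in several carcinomas, were also lower in SKBR3 than in MDA-MB-231, as were LINC00240, LINC01123, PRRT3-AS1 and TSPOAP1-AS1, while LINC01192 was higher (1.23).

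Lower in MDA-MB-468 arrays than in both other lines were LINC00552 and LINC01091. LINC00552 had 6.52, 6.62 and 6.57 in SKBR3 control arrays and 6.46, 6.31 and 6.47 in MDA-MB-231 arrays, against 5.48, 5.42 and 5.07 in MDA-MB-468 arrays (1.25 and 1.09 log2). LINC01091 had 5.44, 5.47 and 5.04 and then 5.17, 5.36 and 4.91, against 4.16, 4.14 and 3.5 (1.38 and 1.22). In MDA-MB-468 control arrays LINC01091 was thus dim, below the median feature, and the choice by level favours such differences. For both genes no array labelled MDA-MB-468 reached the lowest array of another line, ASO arrays included. The neighbours SKBR3 and MDA-MB-231 in that order did not differ by 1 log2 for either gene (0.16 and 0.17). IDH1-AS1, LINC00940 and LINC01252 were higher, and LINC01015 lower, in SKBR3 than in MDA-MB-468.

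**Figure D5:**
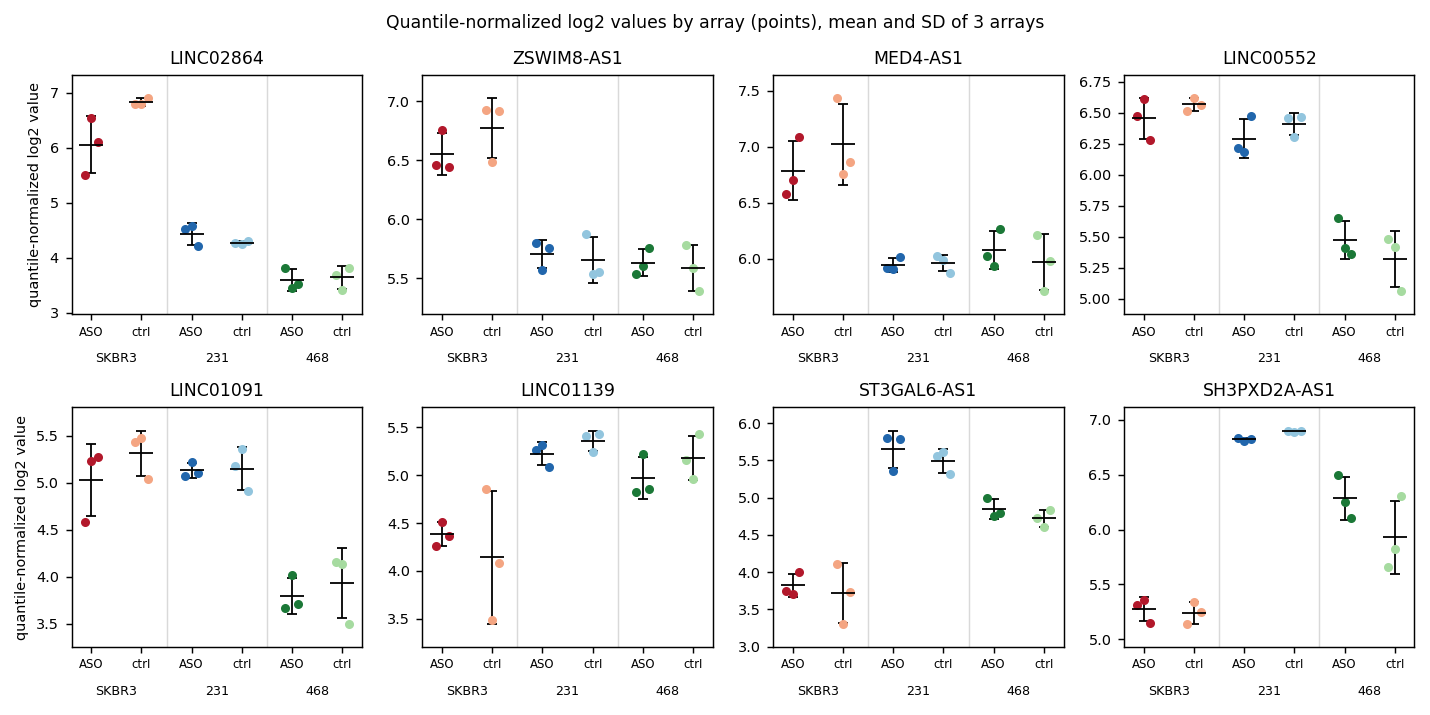
Quantile-normalized log2 values (vertical axis, a separate scale in each panel) of 8 genes on all 18 arrays, with the ASO left of the control ASO for SKBR3, MDA-MB-231 and MDA-MB-468 (axis labels give the number alone). Points are arrays and bars are means ± SD of 3 arrays. LINC02864 is highest in SKBR3, LINC00552 and LINC01091 are lowest in MDA-MB-468, and SH3PXD2A-AS1 takes a different level in each line.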

How the data were processed

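RNA from 18 samples in 6 groups of 3 was hybridised to Affymetrix Human Gene 2.0 ST arrays, and the authors deposited 1 table of processed values per feature. The submitters' processing notes name Transcriptome Analysis Console; for its version, the summarisation method and the genome build, the notes and labels are silent (not given in the sources used here). Values deposited by the authors were read as log2 from their range (0.41 to 13.84). Control probes are not marked in the table, so some of the 37519 unnamed features may be controls.

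The genes and lists were chosen with earlier results of these data known. Groups and replicate numbers came from the labels. Of 53617 features, 29855 had a mean above the median of all features in at least 1 group and were tested. A model of 6 group means was fitted to all 18 arrays with limma 3.58.1 in R 4.3.3, with an intensity trend in the moderated variance and 12 residual degrees of freedom, and p-values were adjusted by Benjamini-Hochberg over all features tested, with a threshold of 0.05. Lines were compared after quantile normalization. The number of arrays limits the precision. Named genes are those that passed, the 5 smallest p in each direction per ASO comparison, up to 6 per line higher or lower than in both others, the 10 brightest, up to 4 per list, their sense genes and those nearest the threshold; exceptions are stated. Alternatives were other filters, variance settings, scalings, array subsets, array weights, a replicate block and omission of each array. Scripts were tested on simulated data. Promoter regions came from RefSeq (GRCh38.p14) and were handled with Python 3.11.15, pandas 2.3.3 and numpy 2.4.6; figures were drawn with matplotlib 3.10.9. A list of 11 microprotein genes under older LINC symbols had 1 named on the array and 0 tested.

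Same-numbered ASO and control arrays were compared by the correlation of their deviations from the group means, which lay between -0.124 and 0.101, so the numbers were not taken to pair samples.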

Additional observations from a re-analysis of the deposited data

Results flagged for a closer look

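LINC00856 was the 1 gene of the 440 whose ASO and control arrays did not overlap in either line that received anti-AL078604.2, with opposite directions in the 2 lines (0.227% of the genes, against 0.409% of all features). In MDA-MB-231 arrays it had 5.35, 5.21 and 5.20 with anti-AL078604.2, against 5.14, 5.01 and 5.16 with the control ASO, a difference of 0.15 log2. In MDA-MB-468 arrays it had 4.91, 4.88 and 4.88, against 4.97, 4.94 and 5.4, a difference of -0.21. Most of that second difference came from 1 control array, the one at 5.4. In both lines the group means of LINC00856 were below the median feature of their group, so it had entered the set through SKBR3 arrays alone. It was thus dim in the lines where it is flagged. The ASO difference in MDA-MB-231 minus that in MDA-MB-468 was 0.36 ± 0.225 log2 and did not pass (limma adjusted p = 0.998). With 3 arrays per group, single arrays were not tested for standing apart.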

How the results depend on the processing

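Counts of called genes among the 440 depended on the settings. In MDA-MB-231 arrays the count of 1 became 0 with no level filter, no intensity trend, robust variance moderation, only the arrays of the comparison, quantile normalization, arrays centred on their medians or the replicate block (0% to 0.167% of all features). It became 2 with a filter at the 75th percentile (FOXD2-AS1 and LINC00857, 2.22% of the 90 genes left, against 0.658% of all features). With array weights it became 24 (5.45%, against 8.08% or 2413 of all features). Omitting 1 array gave 0 to 5 (0 to 532 of all features). In MDA-MB-468 arrays the count of 0 became 50 with array weights (11.4%, against 17.4% or 5199 of all features) and stayed at 0 in each omission (0 to 12 of all features). Array weights ranged from 0.377 (anti-LINC01269 replicate 1) to 9.62 (anti-AL078604.2 replicate 2 of MDA-MB-468). In SKBR3 arrays, omissions gave 0 to 2. The ASO difference in MDA-MB-231 minus that in MDA-MB-468 gave 2 with array weights (0.455%, against 1.04% or 309 of all features) and 0 in each omission. The mean over both lines gave 1 with only the arrays of the comparison (0.227%, against 0.868% or 259 of all features) and 1 with the replicate block (0.227%, against 0.378% or 113). It gave 56 with array weights (12.7%, against 19.6% or 5837) and 1 to 10 over the omissions (91 to 1431 of all features). Without a fold threshold, line differences covered 128 genes between SKBR3 and MDA-MB-231 (29.1%, against 31.5% of all features). They covered 140 between SKBR3 and MDA-MB-468 (31.8%, against 35.5%) and 75 between MDA-MB-231 and MDA-MB-468 (17%, against 26.1%). With the fold threshold, omissions gave 12 to 15, 8 to 13 and 2 to 3 genes in the same order (587 to 645, 721 to 880 and 354 to 421 of all features). With all candidate genes and no level threshold, calls over the 3 ASO comparisons came to 0. For LINC01133, the ASO difference in MDA-MB-231 minus that in MDA-MB-468 was 0.09 log2. Over the omissions it lay between -0.0387 (without anti-AL078604.2 replicate 3 of MDA-MB-231) and 0.265 (without replicate 1). With the replicate block, FOXD2-AS1 in MDA-MB-231 arrays had a limma adjusted p of 0.123, and over the mean of both lines LINC01133 had 0.0789 and ASB16-AS1 0.0818. The causes of these shifts were not tested. Signal near the threshold limits the dimmest genes.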

Other observations

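Spread among ASO arrays was described after the values were seen. The median SD of the 440 genes was 0.162 log2 in anti-LINC01269 and 0.132 in SKBR3 control arrays, 0.127 in anti-AL078604.2 and 0.117 in MDA-MB-231 control arrays, and 0.137 and 0.117 in MDA-MB-468 arrays. The ASO group had the larger SD for 58.4%, 53.9% and 54.8% of the genes in the same order of lines, against 57.6%, 57.2% and 63.1% of all features. GLYATL1-AS1, LINC02864 and RASAL2 placed the 3 anti-LINC01269 arrays in the same order, with replicate 1 farthest from the controls and replicate 2 nearest. Over the 40 genes whose groups did not overlap in SKBR3, however, replicate 3 was nearest most often (19 genes), against 14 for replicate 2 and 7 for replicate 1. In MDA-MB-231 arrays, anti-AL078604.2 replicate 1 was nearest to the controls for FOXD2-AS1, LINC01133, GLYATL1-AS1 and RASAL2. What sets this order was not tested.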
